A study of Mus musculus with 8 samples.

Results

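The mRNAs of 10 mouse genes that write, keep or remove DNA methylation, or form the Polycomb repressive complex that contains EZH2, were followed in activated B cells with and without EIF4A1. They are Uhrf1, Dnmt1, Dnmt3a, Dnmt3b, Tet2, Tet3, Ezh2, Ezh1, Eed and Suz12, found by their gene names among 53242 genes in the deposited tables of read counts and of TPM (a transcript level corrected for transcript length and library size). RNA was sequenced from 8 libraries of splenic B cells, 4 from control mice (Eif4a1 +/+ Cd23-cre) and 4 from 4A1 KO mice (Eif4a1 fl/fl Cd23-cre), all on a C57BL/6 background and 8 to 12 weeks old. EIF4A1 is an RNA helicase that helps ribosomes to load on mRNAs. The Cd23-cre transgene, which both genotypes carry, is active in B cells from the immature stage in the spleen, so that the floxed part of Eif4a1 is removed in B cells and not in the rest of the animal. Before sequencing, the cells spent 24 h in IL4 (40 ng/ml) on CD40LB, an irradiated feeder line that expresses CD40 ligand and human BAFF and was then removed with an antibody to H-2Kd. Odd-numbered replicates (1 and 3) were males and even-numbered ones (2 and 4) females, with 1 and 2 in batch A and 3 and 4 in batch B. The study set aside replicate 1 of both genotypes for low viability, so tests used replicates 2 to 4 (n = 3 per genotype) unless 8 libraries are named.

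DNA methylation is copied at each round of replication: UHRF1 recognises the half-methylated DNA behind the fork and brings in DNMT1, which methylates the new strand. DNMT3A and DNMT3B place methyl groups on unmethylated DNA, and the TET enzymes oxidise them, which starts their removal. The Polycomb repressive complex PRC2 holds EED, SUZ12 and one of the methyltransferases EZH1 or EZH2, and marks histone H3 at lysine 27. In B cells EZH2 is known for its high level in dividing and germinal centre cells, whereas EZH1 is the form of resting cells, and TET2 and DNMT3A are known for their effects on B cell activation and differentiation.

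The libraries held between 31727557 and 43210858 counted reads, of which the smallest was 4A1 KO replicate 1. Eif4a1 itself had a TPM of 974, 933, 1142 and 1136 in control libraries 1 to 4 and of 712, 700.4, 827 and 843 in 4A1 KO libraries 1 to 4. No 4A1 KO library reached the level of a control, and the mean count fell by 26.5% (log2 fold change -0.44, SE 0.050, edgeR adjusted p = 0.000115), short of the threshold for a call used here. The counts cover the whole gene and so include transcript outside the floxed exons. Of 7 B cell markers, Ms4a1 (log2 fold change 0.072) was not called, while Cd79b (-0.89), Cd22 (-0.76) and Cd79a (-0.67) fell. Summed CPM (counts scaled to library size) of 12 fibroblast markers, which would come from feeder cells, lay between 29.0 and 50.6 in control libraries and between 24.7 and 36.8 in 4A1 KO libraries, with Lum at 0 and Dcn, Pdgfra and Pdgfrb at 1 read or fewer in every library. Of these, Fn1 was called higher (log2 fold change 0.86, SE 0.26) and Col3a1 lower (-1.57, SE 0.57), both at under 10 CPM. The sums of 6 T cell markers were at most 1.11 CPM and those of 6 myeloid markers at most 8.92 CPM, with 1 call (Adgre1, 0.62, SE 0.15).

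All 10 genes passed the filter on low counts. Of these, 2 were called decreased (Uhrf1 and Dnmt1) and 2 were called increased (Tet2 and Tet3), which required an adjusted p below 0.05 together with a log2 fold change beyond 0.5 in either direction. Among the 14218 genes tested, 13.7% were called decreased and 11.6% increased. The other 6 genes had an adjusted p under 0.05 with a change within the fold threshold, so that 3 genes were lower and 7 higher by adjusted p alone, where 26.7% of all genes tested were lower and 26.3% higher. On log2(TPM + 1), tested with limma where the mean reached 1 TPM, 3 of the 10 fell and 6 rose, against 24.9% and 22.3% of 12976 genes. In TPM over the 8 libraries, 2 genes (Uhrf1 and Dnmt1) lay below every control in every 4A1 KO library and 4 (Dnmt3b, Tet2, Ezh1 and Eed) above, which held for 19.6% and 16.0% of the 12996 genes whose mean over 8 libraries reached 1 TPM.

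**Figure D1:**
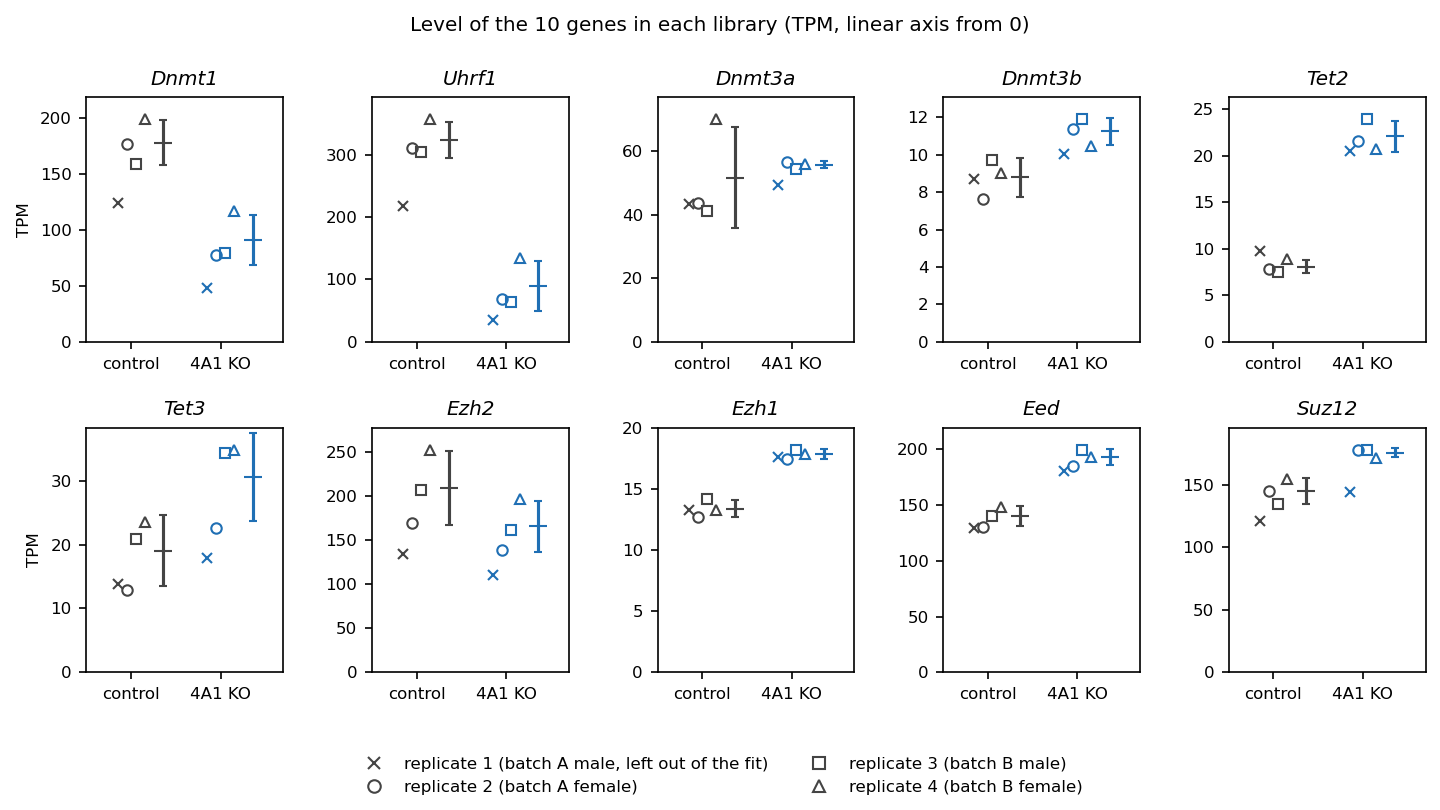
TPM of each of the 10 genes (linear axes from 0) in the 4 control and 4 4A1 KO libraries, with a marker for each replicate and, to the right of each group, the mean ± SD of replicates 2 to 4. Uhrf1 and Dnmt1 are lower in every 4A1 KO library than in any control, Tet2 is higher in every one, and the ranges of Ezh2 and Tet3 overlap.

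The maintenance pair showed the largest decreases of the 10 genes. Uhrf1 (chromosome 17, 56610275 to 56630489, plus strand, GRCm39) had a TPM of 218, 310.1, 304 and 356 in control libraries 1 to 4 and of 35.9, 68.7, 64.0 and 135 in 4A1 KO libraries 1 to 4. The groups did not overlap, and in each genotype replicate 4 was the highest library. The mean TPM was 323 ± 28.7 (SD, n = 3) in controls and 89.3 ± 39.8 (SD, n = 3) in 4A1 KO cells, and the count model gave a decrease of 73.6% (log2 fold change -1.92, SE 0.15, edgeR adjusted p = 2.12e-05). Of all genes tested, 1.68% had a change of that size or more.

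Dnmt1 (chromosome 9, 20817945 to 20871184, minus strand) had a TPM of 125, 177, 159 and 199 in control libraries 1 to 4 and of 48.3, 77.5, 79.8 and 117 in 4A1 KO libraries 1 to 4. The highest 4A1 KO library, again replicate 4, came close to the lowest control, replicate 1, without reaching it. Means were 178 ± 20.1 and 91.5 ± 22.3 TPM (SD, n = 3), and the count fell by 48.8% (log2 fold change -0.97, SE 0.075, edgeR adjusted p = 2.30e-05). For both genes an exact two-sided permutation test of the TPM over 8 libraries gave p = 0.029, the smallest that 4 against 4 allows. Groups that do not overlap always give that value, and Dnmt3b, Tet2, Ezh1 and Eed had it too. RNA came from whole cultures, so fewer cells at a stage that makes these mRNAs and less mRNA in each cell cannot be told apart.

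A processed pseudogene on the X chromosome, Gm5648, is 98.3% identical to Uhrf1 over 1590 bases, and its own count was 83 to 148 reads in control libraries and 8 to 51 in 4A1 KO libraries, beside 16231 to 26567 and 2156 to 10157 reads for Uhrf1. Reads shared between the 2 could be split either way by the counting. The 2 ranges of the pseudogene did not overlap and had the same direction as Uhrf1.

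The stretches shown next are parts of the start-site windows of the members in which a motif of the E2F family, the transcription factors of the entry into S phase, was spelled out. The scan was chosen with the results of these genes known, and a role of E2F factors was not tested. Uhrf1, Dnmt1 and Ezh2, the 3 lower genes, are among the 4 members that hold a match. Windows from 250 bases before to 50 bases after each RefSeq start (table of GRCm38.p6, placed by exact match in GRCm39) were searched on both strands for TTTGGCGC, TTTCCCGC, TTTCGCGC and TTTGCCGC, and all 10 genes were matched, with 15 windows. The motif is in capitals and the rest in lower case, written 5′ to 3′ on the strand of the gene.
Uhrf1, chr17:56611117-56611146, plus strand, 185 to 178 bases before the start: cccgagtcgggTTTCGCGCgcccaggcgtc
Dnmt1, chr9:20863870-20863899, minus strand, bases 34 to 41 after the start: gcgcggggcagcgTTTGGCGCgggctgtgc
Dnmt1, chr9:20864120-20864149, minus strand, the same window, motif on the opposite strand, 219 to 212 bases before the start: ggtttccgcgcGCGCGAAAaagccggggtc
Ezh2, chr6:47571943-47571972, minus strand, bases 4 to 11 after the start: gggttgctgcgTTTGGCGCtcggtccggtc
Suz12, chr11:79883702-79883731, plus strand, 219 to 212 bases before the start: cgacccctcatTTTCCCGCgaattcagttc

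Of 27025 genes with RefSeq windows, 2.60% held at least one of these spellings, and 4 of the 10 genes did. By window, 4 of the 15 of these genes held a match, beside 2.26% of 32851 windows of all genes. Dnmt1 had 3 windows and Uhrf1 had 2, and those of them not shown held no match. The count depended on the start site: in windows of the same length at the GENCODE canonical starts, 1 of the 10 genes (Suz12) and 2.82% of 21757 genes held a match. Suz12 was higher, not lower, in 4A1 KO cells. The matches are letters in a window, and binding was not measured.

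Both de novo methyltransferases were higher in 4A1 KO cells in the counts, within the fold threshold. Dnmt3a (chromosome 12, 3856007 to 3964443, plus strand) had 165, 178, 165 and 179 CPM in control libraries 1 to 4 and 182, 236, 219.6 and 216 CPM in 4A1 KO libraries 1 to 4. The CPM ranges did not overlap, and the log2 fold change was 0.36 (SE 0.048, edgeR adjusted p = 0.000297). In TPM, control replicate 4 was at 70.0 and the other controls at 43.3, 43.8 and 41.3, so that 4A1 KO libraries, between 49.3 and 56.6 TPM, lay inside the control range. On log2(TPM + 1) the difference was 0.15 (SE 0.16, limma adjusted p = 0.486), and without one replicate it was 0.038 (replicate 2, limma adjusted p = 0.895), 0.024 (replicate 3, 0.935) or 0.38 (replicate 4, 0.0332). The ratio of TPM to CPM for Dnmt3a was 0.391 in control replicate 4 and between 0.240 and 0.272 in the other 7 libraries. The cause of that gap was not tested.

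Dnmt3b (chromosome 2, 153490861 to 153529650, plus strand) stood lower, at 8.69, 7.63, 9.70 and 9.02 TPM in control libraries 1 to 4 and at 10.0, 11.4, 11.9 and 10.5 TPM in 4A1 KO libraries 1 to 4. The groups did not overlap, with a small margin between 4A1 KO replicate 1 and control replicate 3. The log2 fold change was 0.37 (SE 0.094, edgeR adjusted p = 0.0093), and it was 0.25 with an adjusted p of 0.0696 without replicate 2, whose pair differed most. Dnmt3c, which is 93.7% identical to Dnmt3b over 1437 bases, had at most 1 read in any library.

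Tet2 and Tet3, the dioxygenases that oxidise 5-methylcytosine, rose together. Tet2 (chromosome 3, 133169436 to 133250900, minus strand) had a TPM of 9.76, 7.86, 7.55 and 8.91 in control libraries 1 to 4 and of 20.5, 21.6, 23.9 and 20.7 in 4A1 KO libraries 1 to 4. The lowest 4A1 KO library was far above the highest control, and the spread within each genotype was small, with means of 8.11 ± 0.713 and 22.1 ± 1.64 TPM (SD, n = 3). The count was 2.71-fold that of controls (log2 fold change 1.44, SE 0.072, edgeR adjusted p = 9.59e-06), and 3.81% of all genes tested changed by as much or more.

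Tet3 (chromosome 6, 83339355 to 83436066, minus strand) had a TPM of 13.8, 12.8, 20.9 and 23.5 in control libraries 1 to 4 and of 17.9, 22.6, 34.4 and 34.8 in 4A1 KO libraries 1 to 4. Batch B was higher than batch A in both genotypes, so the ranges overlapped although each 4A1 KO library was above the control of its own number. The count model, which holds batch and sex, gave a log2 fold change of 0.69 (SE 0.057, edgeR adjusted p = 2.84e-05), and the exact permutation test of the TPM, which ignores batch, gave p = 0.143 over 8 libraries. Tet1, the remaining member of that enzyme family, had 12 to 48 reads per library and was not called (log2 fold change -0.20, SE 0.25, edgeR adjusted p = 0.524).

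Among the PRC2 genes the 2 alternative methyltransferases moved in opposite directions by small amounts, and neither was called. Ezh2 (chromosome 6, 47507073 to 47572331, minus strand) had a TPM of 134, 169, 207 and 253 in control libraries 1 to 4 and of 111, 139, 162 and 196 in 4A1 KO libraries 1 to 4. The ranges overlapped widely, while each 4A1 KO library was below the control of the same number. The log2 fold change was -0.29 (SE 0.047, edgeR adjusted p = 0.000861), and without the replicate block it was -0.29 with an adjusted p of 0.125. Ezh1 (chromosome 11, 101081934 to 101117315, minus strand) was less abundant, with 13.3, 12.8, 14.2 and 13.3 TPM in control libraries 1 to 4 and 17.6, 17.4, 18.2 and 17.9 TPM in 4A1 KO libraries 1 to 4. These groups were tight and did not overlap, and the log2 fold change was 0.42 (SE 0.064, edgeR adjusted p = 0.00064).

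The mRNAs of the core subunits EED, which binds the mark, and SUZ12, which holds the complex together, were both higher in 4A1 KO cells. Eed (chromosome 7, 89603862 to 89630217, minus strand) had a TPM of 129.7, 131, 140.0 and 149 in control libraries 1 to 4 and of 180.2, 185, 199.5 and 193 in 4A1 KO libraries 1 to 4. The groups were well apart, and the log2 fold change of 0.48 (SE 0.049, edgeR adjusted p = 6.62e-05) was just within the fold threshold. It was 0.51 with upper quartile factors and 0.52 without replicate 4, which made it a call. Suz12 (chromosome 11, 79883891 to 79925421, plus strand) had a TPM of 121, 145, 134 and 155 in control libraries 1 to 4 and of 144, 178, 178 and 171 in 4A1 KO libraries 1 to 4. Only 4A1 KO replicate 1 fell within the control range, and the log2 fold change was 0.28 (SE 0.055, edgeR adjusted p = 0.00245). Suz12 lies 10.3 Mb and Ezh1 31.5 Mb from Eif4a1 on chromosome 11, where the genotypes carry different alleles of Eif4a1.

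**Figure D2:**
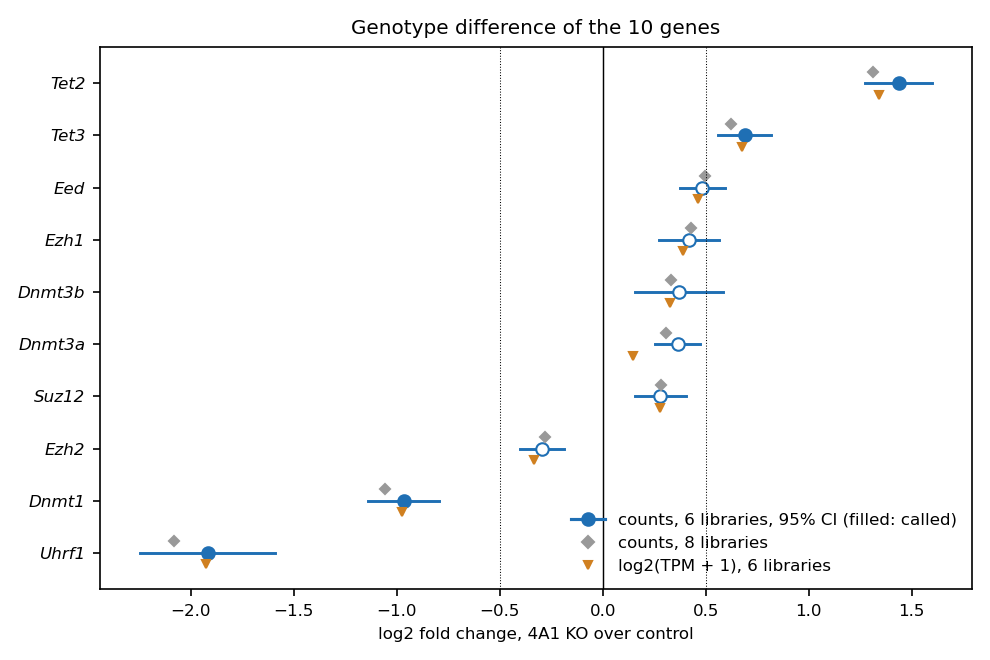
Log2 fold change of 4A1 KO over control for each of the 10 genes. Circles with bars are the count model with its 95% confidence interval (n = 3 per genotype, filled when called), diamonds the count model with 8 libraries and triangles log2(TPM + 1), and dotted lines mark the fold threshold of 0.5. Uhrf1 (-1.92) and Tet2 (1.44) lie at the ends, and the TPM value of Dnmt3a (0.15) lies apart from its count value (0.36).

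The order of the levels changed between the genotypes. In TPM, which can be compared between genes, the control order of means over replicates 2 to 4 was Uhrf1, Ezh2, Dnmt1, Suz12, Eed, Dnmt3a, Tet3, Ezh1, Dnmt3b and Tet2. In 4A1 KO cells it was Eed, Suz12, Ezh2, Dnmt1, Uhrf1, Dnmt3a, Tet3, Tet2, Ezh1 and Dnmt3b. Uhrf1 went from the first to the fifth place and Tet2 from the last to the eighth. Ranges of neighbours overlapped in controls for Ezh2 and Dnmt1, Suz12 and Eed, Tet3 and Ezh1, and Dnmt3b and Tet2, and in 4A1 KO cells for Suz12 and Ezh2, Dnmt1 and Uhrf1, and Tet3 and Tet2.

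Within pairs of libraries with the same number, which share sex and batch, 3 of the 10 genes were lower and 7 higher in 4A1 KO cells in CPM in all 4 pairs, replicate 1 included, as were 33.5% and 33.8% of all genes tested. The log2 ratio of Uhrf1 was -2.56, -2.14, -2.24 and -1.37 in pairs 1 to 4. That of Dnmt1 was -1.32, -1.17, -0.98 and -0.75. Both were smallest in size in pair 4, the batch B females, which was also the pair with the smallest median of 32 DNA replication genes (-1.28, -1.18, -1.12 and -0.83 in pairs 1 to 4). Tet2 had log2 ratios of 0.96, 1.47, 1.58 and 1.26, lowest in the pair that the study set aside. A genotype by sex term over 8 libraries was 0.64 for Uhrf1 (SE 0.22, edgeR adjusted p = 1), a smaller decrease in females. A genotype by batch term was 0.39 for Dnmt1 (SE 0.11, edgeR adjusted p = 0.999), a smaller decrease in batch B. Before adjustment over the 14211 genes tested, these 2 terms, and no other of the 20 for the 10 genes, had a p under 0.05, as did 405 of all genes for the sex term and 610 for the batch term.

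**Figure D3:**
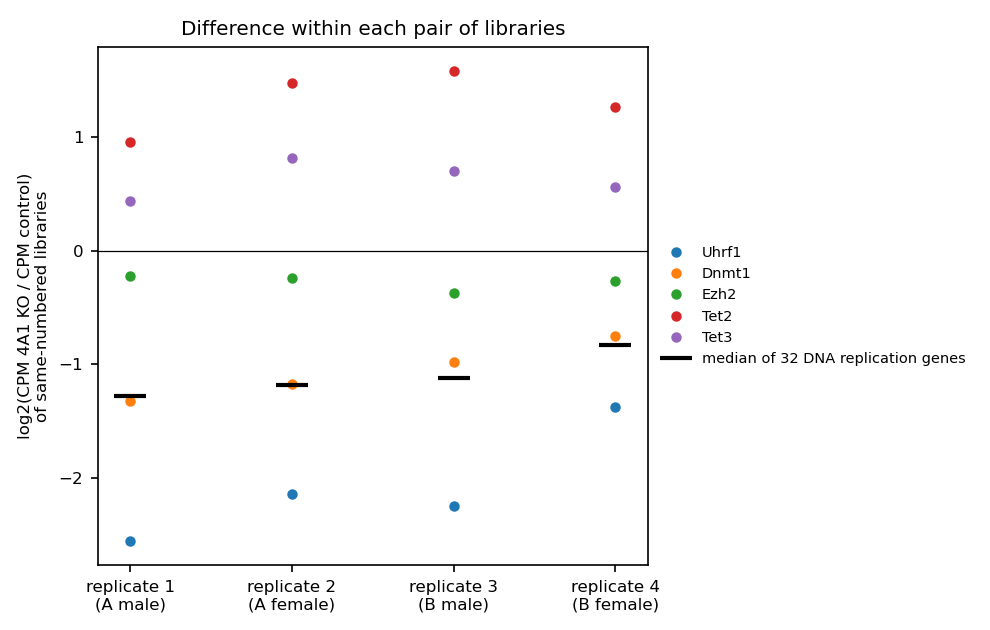
Log2 ratio of CPM, 4A1 KO over control, within each pair of same-numbered libraries for 5 genes (points) and the median of 32 DNA replication genes (bars). Uhrf1 and Dnmt1 are lower in every pair and least so in replicate 4, as is the bar, and Tet2 and Tet3 are higher in every pair.

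Ratios of TPM between related genes were set out library by library, without a test. The ratio of Uhrf1 to Dnmt1 was 1.75, 1.75, 1.91 and 1.79 in control libraries 1 to 4 and 0.743, 0.887, 0.802 and 1.15 in 4A1 KO libraries 1 to 4. It was nearly constant in controls and below all of them in each 4A1 KO library, so Uhrf1 lost a larger share of its mRNA than Dnmt1. Ezh2 to Ezh1 was 10.1, 13.3, 14.6 and 19.0 in controls and 6.28, 7.95, 8.88 and 10.95 in 4A1 KO libraries, lower in each pair with overlapping ranges. Ezh1 made up between 5.0% and 9.03% of the summed TPM of both genes in controls and between 8.37% and 13.7% in 4A1 KO libraries. Tet2 to Tet3 was 0.707, 0.613, 0.362 and 0.380 in controls and 1.15, 0.954, 0.695 and 0.595 in 4A1 KO libraries, higher in each pair. Dnmt3a to Dnmt3b lay between 4.26 and 7.76 in controls, the highest being replicate 4 described earlier, and between 4.59 and 5.36 in 4A1 KO libraries. Dnmt1 to Tet2 was 12.8, 22.6, 21.0 and 22.3 in controls and 2.36, 3.59, 3.34 and 5.65 in 4A1 KO libraries.

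**Figure D4:**
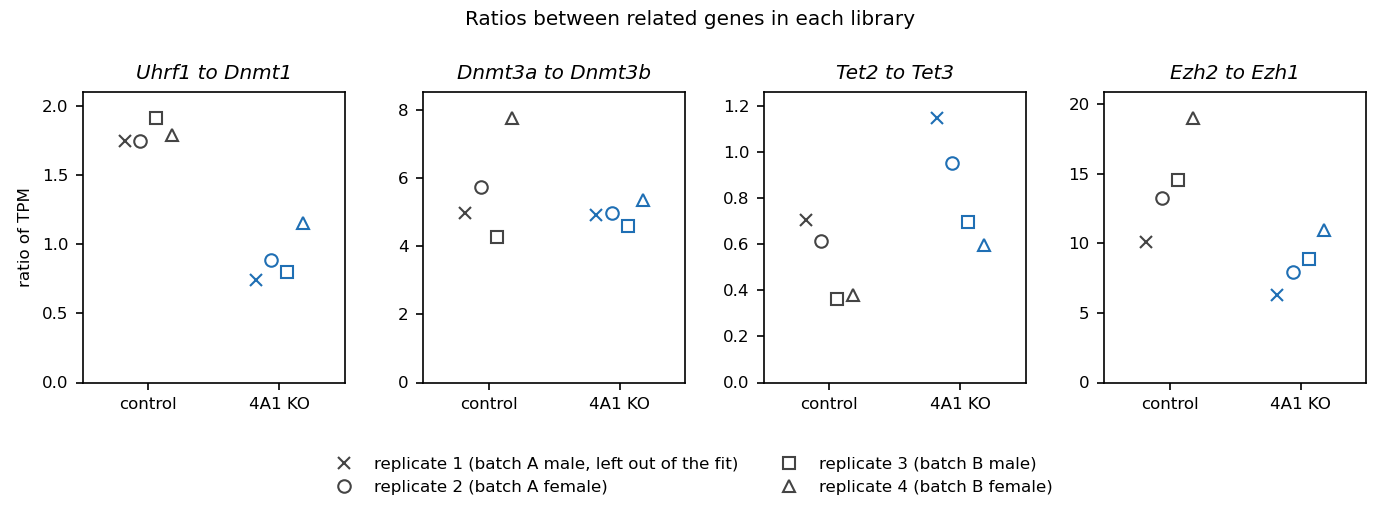
Ratio of TPM between 4 pairs of related genes (linear axes from 0) in each of the 8 libraries, with a marker for each replicate. Uhrf1 to Dnmt1 separates the genotypes (at most 1.15 in 4A1 KO, at least 1.75 in controls), Tet2 to Tet3 and Ezh2 to Ezh1 differ within each pair while their ranges overlap, and Dnmt3a to Dnmt3b shows no separation.

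Other genes of these pathways were counted in 7 lists of 72 genes in all, of which 70 were tested, 11 fell (15.7%) and 9 rose (12.9%), close to the 13.7% and 11.6% of all genes tested. Among 8 partners of maintenance methylation, 5 fell, 0 rose and 3 were not called, with a median log2 fold change of -0.74 against 0.0066 over all genes tested. Pclaf, a PCNA-binding protein, fell most (-2.74, SE 0.30), followed by the DNA ligase Lig1 (-1.10, SE 0.089), the chromatin remodeller Hells (-1.04, SE 0.064), the sliding clamp Pcna (-0.95, SE 0.083) and the MYC-interacting Cdca7l (-0.53, SE 0.063). The remaining 3, Usp7 (0.24), Uhrf2 (0.16) and Cdca7 (0.016), were not called. Pcna and Lig1 are also in the list of 32 DNA replication genes, of which 28 fell, 0 rose and 4 were not called (median -1.06). Fen1 (-1.09, SE 0.060), a flap endonuclease, Chaf1a (-1.19, SE 0.082), a histone chaperone of the fork, and the helicase subunit Mcm4 (-0.87, SE 0.062) were among those with the smallest adjusted p in that list. Summed CPM of the replication genes ranged from 6525 to 8555 in controls and from 3157 to 5228 in 4A1 KO libraries. The part of replication in the decreases of Uhrf1 and Dnmt1 was not tested.

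Of 8 readers of methylated DNA, 1 was called decreased and 0 increased, and by adjusted p alone 2 were lower and 5 higher (median 0.24). Mbd4, which is also a thymine glycosylase, was the one called (-0.71, SE 0.12, edgeR adjusted p = 0.00127). In the list of active demethylation, 2 of 10 were called increased and 0 decreased, and by adjusted p alone 4 were lower and 3 higher (median -0.13). Gadd45g (1.00, SE 0.098), a stress-response gene, and Smug1 (0.83, SE 0.19), a uracil glycosylase, were those that rose. Tdg, the glycosylase that removes the oxidised bases made by the TET enzymes, was not called (-0.027, SE 0.060).

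Of 10 tested accessory and histone-binding subunits of PRC2, 2 rose, 2 fell and 6 were not called (median 0.032). Jarid2 (1.14, SE 0.071) and Aebp2 (0.63, SE 0.058), which belong to one form of the complex, rose, while Phf19 (-1.06, SE 0.10) and Mtf2 (-0.52, SE 0.054), 2 Polycomb-like proteins of the other form, fell. Phf1, the remaining Polycomb-like protein, was not called (0.030, SE 0.10), nor were Epop (0.033, SE 0.062), Lcor (0.32, SE 0.065, edgeR adjusted p = 0.0033) and Lcorl (0.30, SE 0.099, edgeR adjusted p = 0.030), also of that form. A difference between the forms was not tested. The histone-binding subunits Rbbp4 (-0.24) and Rbbp7 (-0.25) were not called.

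Among 21 subunits of the other Polycomb complex, PRC1, 4 rose, 2 fell and 15 were not called (median 0.15). Those that rose were Pcgf1 (0.77, SE 0.14), Phc1 (0.66, SE 0.074), Rybp (0.60, SE 0.076) and Bmi1 (0.60, SE 0.047), and those that fell were the chromobox genes Cbx2 (-1.32, SE 0.17) and Cbx6 (-0.81, SE 0.078). The catalytic subunits Ring1 (0.048) and Rnf2 (0.25) were not called. Of 5 tested genes that remove Polycomb marks, Kdm6b, a demethylase of lysine 27, rose (1.32, SE 0.075, edgeR adjusted p = 1.02e-05), and the other demethylase, Kdm6a, was not called (0.30, SE 0.065). In the supply of methyl donor, 1 of 8 genes fell and 0 rose (median 0.22): Ahcy, which clears the product of methylation, fell (-0.60, SE 0.050), and Mat2a, which makes the donor, was just within the fold threshold (0.4996, SE 0.049).

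**Figure D5:**
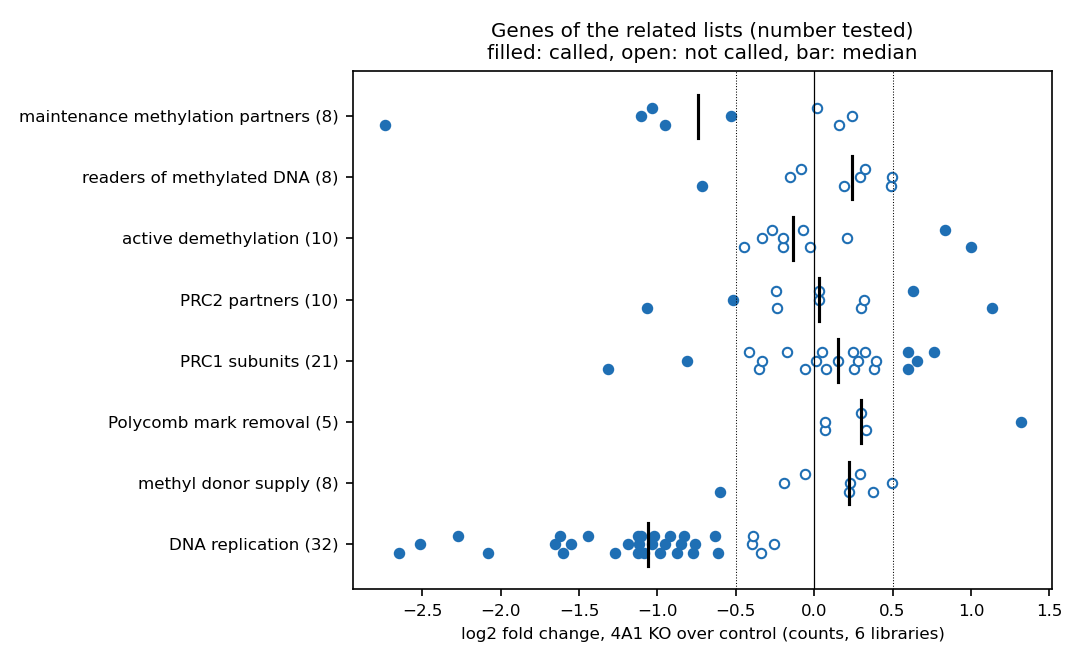
Log2 fold change of 4A1 KO over control (count model, n = 3 per genotype) of each tested gene in 8 lists, filled when called, with a bar at the median of the list. The partners of maintenance methylation (median -0.74) and the DNA replication genes (median -1.06) lie to the left of 0, and PRC2 partners lie on both sides (median 0.032).

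The germline genes were near the limit of detection in both genotypes. Of 14 germline genes repressed by DNA methylation in somatic cells, 1 passed the filter on low counts, Brdt, which was not called (0.53, SE 0.36, edgeR adjusted p = 0.242), and 6 had no read in any library. Their summed level was 0.51 to 1.5 CPM in controls and 1.0 to 2.0 CPM in 4A1 KO libraries. Of 18 classical Polycomb targets, 5 were tested, and the summed level of the list was 17.1 to 35.8 CPM in controls and 17.5 to 35.2 CPM in 4A1 KO libraries. Prdm1, which drives plasma cell differentiation, was the only one called, and fell (-0.64, SE 0.11, edgeR adjusted p = 0.00114). Cdkn1a, a cell cycle inhibitor with 313 to 977 reads in controls and 413 to 1043 in 4A1 KO libraries, was not called (0.22, SE 0.088). Cdkn2a, the cell cycle inhibitor locus, had 7 to 31 reads in controls and 19 to 35 in 4A1 KO libraries and was not called (0.39, SE 0.37). DNA and histone methylation were not measured here.

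For each of the 10 genes the 3 genes with the most similar pattern over the 8 libraries were taken from the 11826 tested genes whose mean reached 1 CPM, by the root mean square distance between log2 CPM centred on each gene's mean. The distance takes in every difference between libraries, of genotype, batch or sex, and is given as a description. For Uhrf1 they were Ncaph (distance 0.11), Rad54l (0.12) and Rad51ap1 (0.13), a condensin subunit and 2 genes of homologous recombination, with log2 fold changes of -1.85, -1.93 and -1.70. Those nearest to Dnmt1 were Pole (0.059), the catalytic subunit of the leading-strand polymerase, Mcm4 (0.096) and 2210408I21Rik (0.098). Tet2 was nearest to Blcap (0.12), Socs7 (0.12) and Brpf3 (0.13), with log2 fold changes of 1.29, 1.17 and 1.35, and Tet3 to the zinc finger genes Zbtb34 (0.096) and Zfp397 (0.10) and to B230219D22Rik (0.11). The neighbours of Ezh2 were Rrm2b (0.040), a ribonucleotide reductase subunit, Stx12 (0.054) and Ppat (0.056), none of them from the replication list. Rnf13 was among the 3 nearest of both Dnmt3a (0.051) and Suz12 (0.041), beside Gatad2b and Ahdc1 for Dnmt3a and Usp47 and Strbp for Suz12. The remaining genes had Zfp984, Ythdf3 and BC065397 (Dnmt3b), Atad3a, Jkamp and Pabpn1 (Ezh1) and Pafah1b1, Strn4 and Riok1 (Eed) as neighbours, at distances between 0.032 and 0.053.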

How the data were processed

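RNA of 8 libraries was measured, and their genotype, sex, batch and replicate number were taken from their labels. Per the study's methods, the authors trimmed the reads (Trim Galore 0.6.6), mapped them to GRCm39 with HISAT2 2.1.0 and counted strand-specific read pairs per gene over merged isoforms, and deposited these raw counts without normalization. The authors computed the deposited TPM with StringTie 2.1.1. The treatment of multi-mapping reads in the counting is not given in the sources used here. No per-sample column was left unused (0 of 8 per table).

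Counts of 6 libraries (38488341 to 43210858 reads, replicate 1 left out as by the study) were tested with edgeR 4.0.16 (R 4.3.3), using filterByExpr, TMM, a quasi-likelihood fit of genotype with batch and sex as covariates, two-sided tests, and Benjamini-Hochberg adjustment over all genes tested. In 6 libraries batch and sex equal the replicate number as a block. The pairing rests on these labels. Deviations from the genotype means correlated at 0.535 to 0.710 within pairs and at -0.321 on average otherwise. The negative value follows from centring each genotype on its own mean, so the contrast cannot test the pairing. Values within pairs cannot tell a pairing of mice from shared sex and batch. Calls required an adjusted p below 0.05 together with a log2 fold change beyond 0.5 in either direction. Fold changes of TPM are on the log2(TPM + 1) scale (limma 3.58.1), which understates changes of low genes. Exact two-sided permutation tests of the TPM used 8 libraries for the 10 genes, without adjustment. SDs cover the spread between libraries, each from 1 mouse. Each SE comes from a fit with batch and sex as terms, so it leaves out the spread that these take up. The scripts were tested on simulated data.

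The genes and the 14 lists were chosen with earlier results of these data known, and so was the motif scan. The named list genes are all those called where at most 5 were called in a direction and otherwise the 3 with the smallest adjusted p, with the B cell and feeder markers, apart from a few that are not reported here. Others (uncalled members of the lists and near copies) were chosen after their values were seen. Near copies were found with blastn 2.17.0. Alternatives were other scaling factors, DESeq2 1.42.0, glmTreat, other filters and pseudocounts, no replicate block, all 8 libraries and leaving out each replicate.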

Additional observations from a re-analysis of the deposited data

Results flagged for a closer look

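Of 40 groups of 4 libraries examined (10 genes, 2 genotypes, CPM and TPM), 1 had a library that stood apart by Dixon's ratio of the gap to the range. It was Dnmt3a in control TPM, with a ratio of 0.915, above the 95% critical value for 4 samples: control replicate 4 was at 70.0 TPM and the nearest control at 43.8. Chance sets apart about 1 in 20 groups. The counts of the same gene and library did not stand apart.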

How the results depend on the processing

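Over 12 alternatives for the counts, the same number of the 10 genes was called decreased (2), and between 2 and 3 were called increased. Each of the 10 log2 fold changes kept its direction in every alternative for counts and TPM. Eed became a call with upper quartile factors (0.51) and, among the fits without one replicate, where it ranged from 0.47 to 0.52, in the one without replicate 4. Without the replicate block Ezh2 no longer had an adjusted p under 0.05 (0.125, in a range of 9.01e-06 to 1 over all alternatives, the highest with glmTreat against a log2 fold change of 0.5), and Tet3 stayed called (adjusted p = 0.0421, the highest of its alternatives). Dropping the block changed no other call of the 10 genes in the counts. With glmTreat 2 genes rather than 7 were higher by adjusted p, since it tests against the fold threshold, and the pathway lists held 7 decreased and 3 increased genes rather than 11 and 9. The motif was in 1 gene rather than 4 at GENCODE canonical starts, an alternative chosen after seeing the data, as was the fit of all 8 libraries with the replicate block, which gave the same number of calls among the 10 genes and 10 rather than 9 increased genes in the pathway lists. Uhrf1 ranged from -2.20 to -1.75 without one replicate and was -1.39 with DESeq2's normal shrinkage. In TPM, 2 to 3 of the genes fell and 4 to 6 rose: Dnmt3b lost the threshold in 3 of 3 fits without one replicate and Suz12 in 2 of 3, and both with no filter on low TPM. Ezh2 lost it without the block or replicate 3, and Dnmt3b and Tet3 without the block (adjusted p = 0.0524 and 0.0874). With 3 libraries per genotype, an adjusted p under 0.05 rests on the replicate block for Ezh2 and, in TPM, also for Tet3 and Dnmt3b. In the counts Tet3 kept it without the block, at a larger adjusted p.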
